A study of Homo sapiens with 7 samples.

Results

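The cyclin D loci comprise the 3 genes of the D-type cyclins, CCND1, CCND2 and CCND3, each with 250 kb of flank on either side. Their members are the peaks that any of 7 chromatin libraries had in these windows, taken by position and merged where they overlapped by at least 1 bp. The 202 peaks in the windows gave 189 merged regions, of 113740 regions in all 7 peak lists. CCND1 held 46 regions, CCND2 107 and CCND3 36.

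The libraries came from HT1080, a human fibrosarcoma line with an activating NRAS mutation and loss of CDKN2A, transfected with small interfering RNA (siRNA) against the kinase VRK1 (siVRK1) or with a non-targeting siRNA (siControl). Chromatin immunoprecipitation used antibodies against histone H2A phosphorylated at threonine T120 (pT120), H2A ubiquitylated at lysine K119 (ubK119) and VRK1. Both marks and the unprecipitated input DNA were sequenced under both siRNAs, and VRK1 under siControl alone. Each antibody and siRNA had 1 library, with totals from 20687408 to 40442635 reads, so differences between siRNAs are differences between single libraries, without replicates. The series title names cyclin D1, the product of CCND1, as a gene raised through pT120, which is the question the CCND1 values bear on. No RNA values were analysed here, so the regions say nothing of the level of any cyclin, and the depletion of VRK1 was not measured in them.

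D-type cyclins bind the kinases CDK4 and CDK6 and guide them to phosphorylate RB1, which releases E2F factors and lets cells pass from G1 into S phase. CCND1 is the member most often raised by growth factor and RAS signalling and by gene amplification in tumours, CCND2 is known as a gene that Polycomb complexes can silence, and CCND3 is prominent in blood cells. VRK1 is a nuclear serine and threonine kinase with histones among its substrates, and K119 of H2A is ubiquitylated by the Polycomb complex PRC1 on repressed genes. T120 and K119 are neighbouring residues in the tail of the same histone.

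The 3 genes lay in windows of like size but held unequal numbers of regions. In hg19, CCND1 spans 69455873 to 69469242 on the plus strand of chromosome 11, and its window held 89.6 regions per Mb against 37.2 over that chromosome. CCND2 spans 4382902 to 4414522 on the plus strand of chromosome 12, with 201.3 regions per Mb against 40.6 over the chromosome. CCND3 spans 41902671 to 42016610 on the minus strand of chromosome 6, with 58.6 regions per Mb against 27.1. The genome as a whole had 38.2 regions per Mb, so all 3 windows were denser than their chromosomes and the genome.

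By gene order in the RefSeq annotation of GRCh38.p14, MYEOV precedes CCND1, and LTO1, FGF19 and FGF4 follow it. PARP11 precedes CCND2, and TIGAR, FGF23 and FGF6 follow it. CCND3 has BYSL before it and TAF8 after it. Builds differed, so no region was assigned to a neighbour or to an exon, and positions within the genes are given as distances from the start.

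Most regions of the loci were called in a single library. Of the 189 regions, 178 (94.2%) were called in 1 list only, where 89.4% of all regions were. A further 10 were called in 2 lists, and 1, at CCND2, in more than 2, where 4.51% of all regions were called in 3 or more lists. An input list held 44 of the 189, against 28.9% of all regions, and no antibody list held 37, against 22% of all regions. Regions were short, with a median length of 220 bp and a range of 200 to 651 bp, and no library had more than 48 reads in any of them. Levels are given in RPM, reads per 1000000 reads of the library, and 3 reads correspond to 0.0742 to 0.145 RPM, which is the resolution behind single regions.

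**Figure D1:**
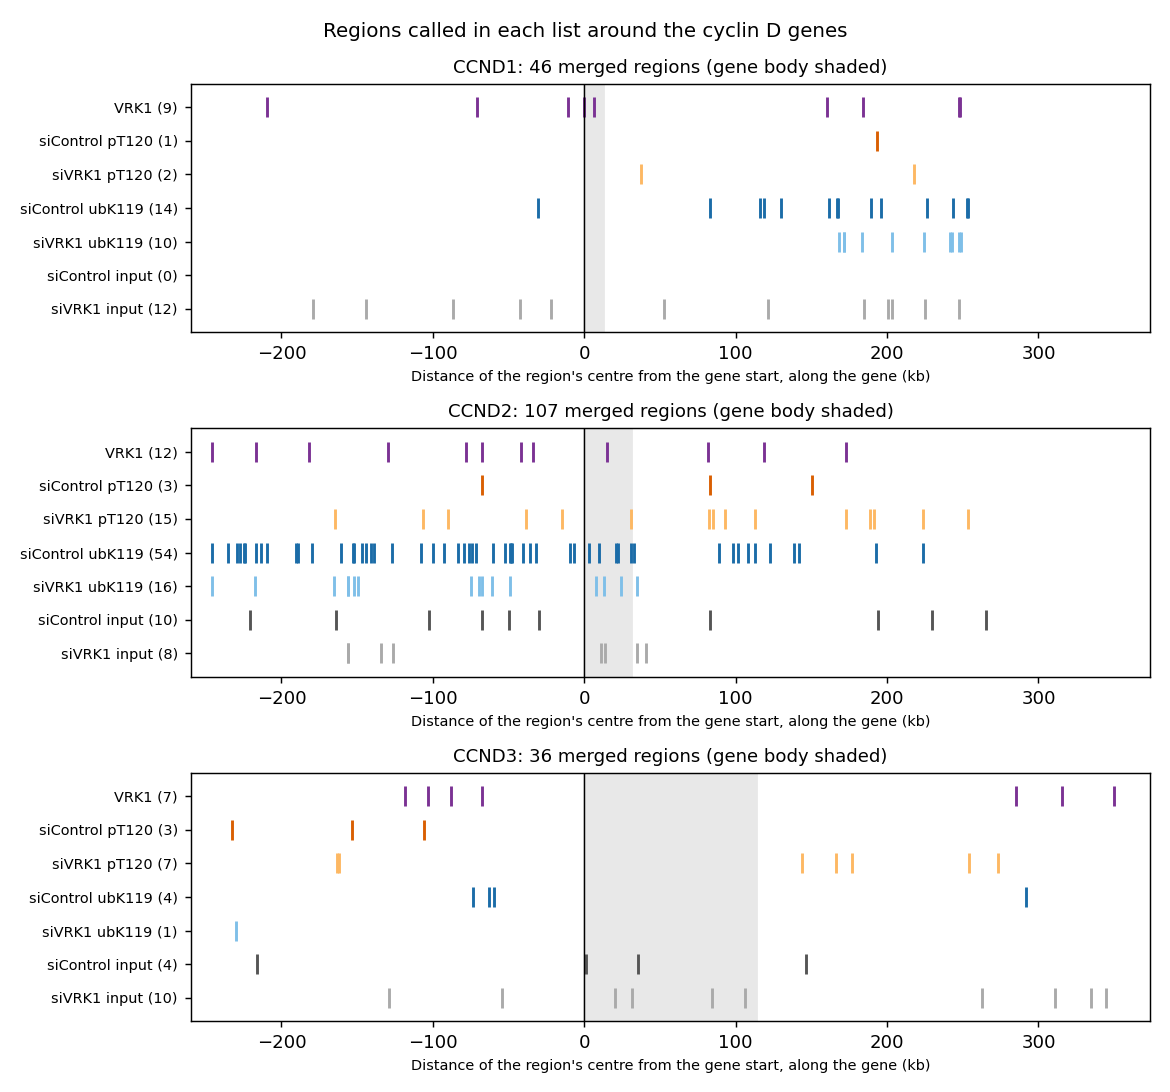
Regions called in each of the 7 peak lists around CCND1, CCND2 and CCND3, by distance of the region's centre from the gene start along the gene in kb. Each tick is 1 region, a region in several lists is drawn in each, the shading is the gene body, and the 54 siControl ubK119 regions of CCND2 stand beside 14 at CCND1 and 4 at CCND3.

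Near the gene starts, each cyclin gene had 1 region within 5 kb, and the library that called it differed from gene to gene. At CCND1 it was a VRK1 peak 325 to 525 bp upstream of the start, at chr11:69455348-69455548. It held 12 VRK1 reads (0.375 RPM), 7 siControl pT120 reads, 3 siVRK1 pT120 reads, 3 siControl ubK119 reads and 6 siVRK1 ubK119 reads. The siControl input had 1 read there and the siVRK1 input 9. VRK1 was the highest library in RPM, within counting error of siControl pT120 (0.338 RPM), and the siVRK1 input stood above the siControl input. The region was called for VRK1 alone, so the rank of VRK1 follows the calling.

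The VRK1 level over siControl input at this CCND1 region, called for VRK1, was 10.1 (exact 95% interval 1.49 to 431), which follows the calling. All intervals cover counting error alone, and PCR reads are not independent molecules. Against the siVRK1 input, 12 reads stood beside 9. The siVRK1 to siControl ratio of pT120 was 0.246 (0.0411 to 1.08) and that of ubK119 2.70 (0.576 to 16.7). Both intervals include 1, so a difference of either mark at this region was not detectable at this depth.

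At CCND2 the near region was a siControl ubK119 peak in the gene body, 2869 to 3287 bp downstream of the start, at chr12:4385771-4386189. It held 27 siControl ubK119 reads (0.668 RPM) and 10 siVRK1 ubK119 reads, with 10 VRK1, 2 siControl pT120 and 13 siVRK1 pT120 reads. The inputs had 7 (siControl) and 6 (siVRK1) reads. The ubK119 mark of siControl cells was 2.57 times the input (1.09 to 6.98), in a region called for that library. The siRNA ratio was 0.4997 (0.216 to 1.07) for ubK119 and 3.73 (0.845 to 34.1) for pT120, with both intervals including 1. Calling in siControl ubK119 favours a low ubK119 ratio, so the order of the marks here cannot be compared with that at the CCND1 start.

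CCND3 had only an input peak near its start, called in the siControl input 1083 to 1283 bp downstream, at chr6:42015327-42015527. The siControl input had 12 reads there and the siVRK1 input 7. The antibody libraries had 7 (VRK1), 5 and 2 (siControl and siVRK1 pT120) and 4 and 6 (siControl and siVRK1 ubK119) reads. No antibody list had a peak within 5 kb of the CCND3 start or anywhere in its gene body.

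**Figure D2:**
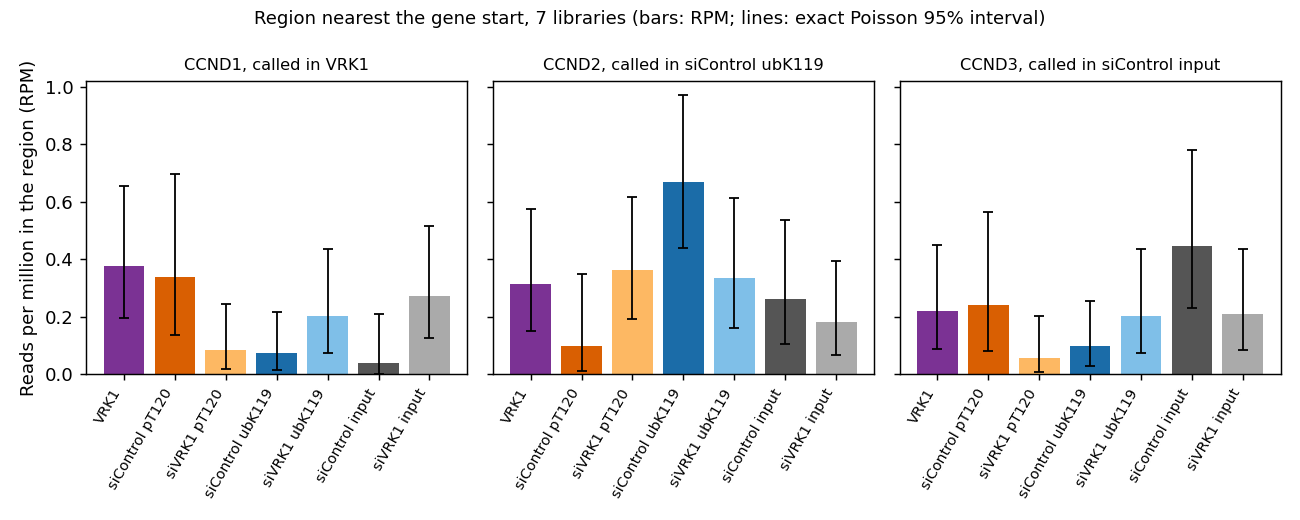
RPM of the 7 libraries in the region nearest each gene start, with exact 95% Poisson intervals for counting error. VRK1 was highest at CCND1 (0.375 RPM), siControl ubK119 at CCND2 (0.668 RPM) and the siControl input at CCND3 (0.446 RPM). Each was the library that had called the region, so its rank follows the calling.

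The RefSeq promoter table held 3 starts of CCND3, and none was found in it for CCND1 or CCND2. The 250 bases upstream of the first and second starts are shown because these stretches differ in a motif that the starts of growth genes often carry, while neither mark nor VRK1 had a peak at this gene. Capitals mark GGGCGG, the GC box, on either strand. Sequences are from GRCh38.p14, minus strand, and were not matched to the hg19 regions.
CCND3 first start, chr6:42048689-42048938: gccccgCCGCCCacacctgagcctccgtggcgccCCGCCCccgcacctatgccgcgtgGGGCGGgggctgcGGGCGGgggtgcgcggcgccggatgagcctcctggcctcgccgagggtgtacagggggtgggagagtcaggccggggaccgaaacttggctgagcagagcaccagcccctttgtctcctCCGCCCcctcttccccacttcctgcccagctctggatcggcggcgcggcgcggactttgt
CCND3 second start, chr6:41941809-41942058: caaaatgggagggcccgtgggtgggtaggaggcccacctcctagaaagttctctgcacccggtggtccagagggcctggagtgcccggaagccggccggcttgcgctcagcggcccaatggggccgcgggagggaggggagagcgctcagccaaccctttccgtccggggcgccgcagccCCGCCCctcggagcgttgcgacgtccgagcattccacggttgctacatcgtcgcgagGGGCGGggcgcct

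The first of these had 5 matches to GGGCGG, the second 2 and the remaining start 0. Of 35116 promoter windows of 250 bases in the table, 42.6% held at least 1. The CREB motif TGACGTCA (in 1.65% of all windows), its core ACGTCA (7.10%), the AP-1 motif TGANTCA (6.57%), the E box CACGTG (6.35%) and the TATA box TATAAA (10.7%) had no match at any of the CCND3 starts, on either strand. TGACGTCA contains ACGTCA, so those matches overlap. A missing match says only that these letters are not in the window.

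VRK1 peaks were present at all 3 loci. CCND1 had 9 regions with a VRK1 peak of 46 (19.6%), CCND2 12 of 107 (11.2%) and CCND3 7 of 36 (19.4%), where 14.3% of all regions had one. Per Mb these peaks were 2.98, 3.83 and 1.94 times as dense as over the genome. Input peaks were 0, 3.115 and 1.08 times as dense for siControl and 3.24, 2.08 and 2.255 times for siVRK1. The VRK1 density was thus of the order of that of an input at each locus. At CCND1, 4 of the 9 lay upstream, 1 in the gene body and 4 beyond 150 kb downstream. At CCND2, 8 of 12 lay upstream, and at CCND3 none lay in the gene body. Heights were 14 to 18 extended reads, close to the lowest of the VRK1 list, 14.

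The CCND1 gene body held 1 region of any list, a VRK1 peak at chr11:69461933-69462133, 6060 bp downstream of the start. It had 15 VRK1 reads against 1 in the siControl input and 6 in the siVRK1 input, and its VRK1 level follows the calling. The pT120 antibody gave 0 reads there under either siRNA. The ubK119 antibody gave 2 reads under siControl and 8 under siVRK1, a ratio of 5.40 (1.08 to 52.2). A count of 0 allows up to 3 reads, so pT120 was not detectable in this region. The VRK1 regions with the most reads at CCND1, 19 each, lay at chr11:69246497-69246856 and chr11:69639556-69639881, each with 8 siControl input reads and so 1.99 times the input (0.833 to 5.26). The pT120 reads there went from 9 to 2 and from 7 to 3 between the siControl and the siVRK1 library.

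Outside VRK1 and input peaks, the VRK1 RPM summed over a locus stood above the siControl input at CCND1 and CCND2 and not at CCND3. The ratio was 1.47 (1.10 to 1.97) over 25 regions of CCND1, 1.30 (1.12 to 1.52) over 78 of CCND2 and 0.982 (0.683 to 1.41) over 15 of CCND3, with 1.03 over the genome. In the CCND2 gene body it was 1.85 (1.22 to 2.84) over 9 regions. Set against the siVRK1 input, the ratio was 0.959 (0.752 to 1.22) at CCND1 and 1.005 (0.881 to 1.15) at CCND2. The excess at both loci was thus present against 1 input and absent against the other.

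Few of the merged regions at these genes had a pT120 peak in control cells. Regions with a siControl pT120 peak numbered 1 at CCND1, 3 at CCND2 and 3 at CCND3, where 4.85% of all regions had one. The shares were 2.17%, 2.80% and 8.33%, and the exact intervals of all 3 include that background. Per Mb, siControl pT120 peaks were 0.870, 2.52 and 2.18 times as dense as over the genome, beside 0, 3.115 and 1.08 for siControl input peaks. All 7 lay over 60 kb from the start. Regions with a siVRK1 pT120 peak numbered 2, 15 and 7, where 36.1% of all regions had one; the siVRK1 list is the longest of the 7, with 42461 peaks against 6665 for siControl. The shares of 4.35%, 14.0% and 19.4% were below that background at each locus. Per Mb, siVRK1 pT120 peaks were 0.273, 1.98 and 0.799 times as dense as over the genome, so denser than the genome at CCND2. The lists differ in the height a peak needed, which was 0.580 RPM for siControl and 0.333 RPM for siVRK1. At 0.580 RPM for both, siControl kept 1, 3 and 3 peaks and siVRK1 0, 0 and 0, with 6665 and 1550 over the genome. That height is the minimum of the siControl list, so all its peaks passed by construction.

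In regions where pT120 had not been called, its RPM was lower in the siVRK1 library at all 3 genes. CCND1 had 176 siControl reads (8.51 RPM) and 104 siVRK1 reads (2.89 RPM) over 43 regions, a ratio of 0.339 (0.264 to 0.435). CCND2 had 367 and 433 reads (17.7 and 12.02 RPM) over 89 regions, a ratio of 0.677 (0.588 to 0.781). CCND3 had 126 and 71 reads (6.09 and 1.97 RPM) over 26 regions, a ratio of 0.324 (0.238 to 0.436). The genome gave 0.567 in regions chosen the same way, below the CCND2 value and above those of CCND1 and CCND3. The place of CCND2 against the genome depended on the choice of regions, and that of CCND1 and CCND3 did not. Leaving out pT120 peaks left out siVRK1 peaks, which needed less RPM. Of all regions 36.1% had one, against 4.35%, 14.0% and 19.4% at CCND1, CCND2 and CCND3. Over all regions, peaks included, the ratio was 0.382 at CCND1 (0.303 to 0.480), 0.825 at CCND2 (0.730 to 0.934), 0.561 at CCND3 (0.452 to 0.696) and 1.07 over the genome, so that CCND2 too lay below the genome and the genome was above 1.

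Between the genes, the CCND1 ratio was 0.501 times that of CCND2 (0.379 to 0.662), and the CCND2 ratio 2.09 times that of CCND3 (1.52 to 2.89). CCND1 and CCND3 were not told apart, at 1.05 times (0.718 to 1.53). Within CCND1 the ratio was 0.359 upstream (0.209 to 0.606) and 0.334 downstream (0.2495 to 0.443). Within CCND2 it was 0.724 upstream (0.610 to 0.859), 0.498 in the gene body (0.328 to 0.754) and 0.650 downstream (0.463 to 0.915). Within CCND3 it was 0.412 upstream (0.255 to 0.658), 0.338 in the gene body (0.184 to 0.604) and 0.225 downstream (0.123 to 0.395). The stretches of each gene overlapped in their intervals.

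**Figure D3:**
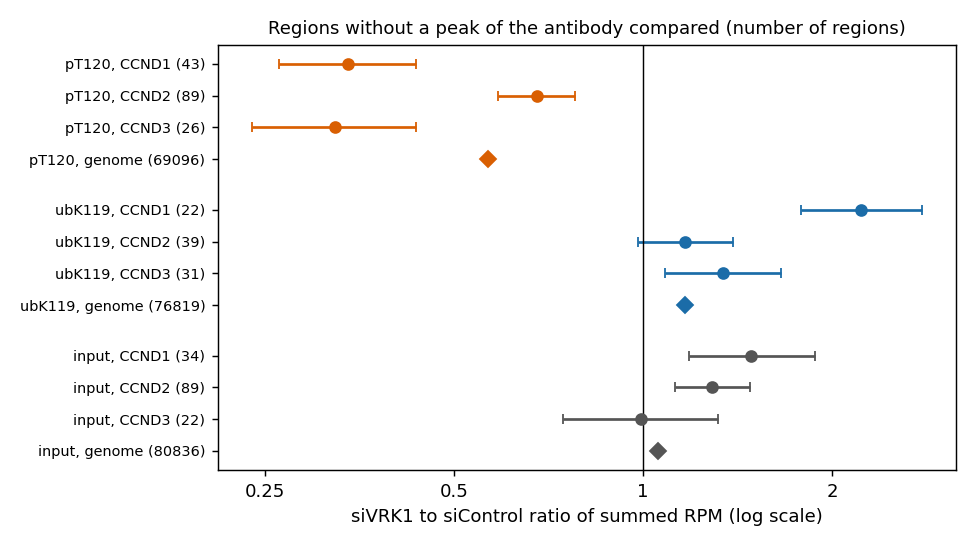
Ratio of summed RPM in siVRK1 to siControl libraries, on a log scale, for pT120, ubK119 and input at each locus and over the genome, in regions without a peak of the antibody compared. Points carry exact 95% counting intervals and the number of regions, diamonds are the genome (intervals narrower than the symbol), and pT120 lies below 1 throughout, at 0.339, 0.677 and 0.324 for CCND1, CCND2 and CCND3.

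The list that had called a region went with its pT120 ratio, and the genes differ in their mix of lists. Over the genome the ratio was 0.858 in regions called only in siControl ubK119 and 0.452 in those called only in VRK1. CCND2 is mostly of the first kind. In its 51 regions called only in siControl ubK119 the ratio was 0.835 (0.696 to 1.002), and in its 9 called only in VRK1 it was 0.396 (0.238 to 0.652). CCND1 gave 0.490 (0.315 to 0.760) and 0.322 (0.185 to 0.550), and CCND3 0.574 (0.288 to 1.15) and 0.238 (0.110 to 0.480), in the same 2 kinds of region.

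With each gene set against genome regions of the same lists, which was an alternative chosen after seeing the data, pT120 was 0.592 times the genome's ratio at CCND1 (0.459 to 0.763), 0.996 at CCND2 (0.861 to 1.15) and 0.589 at CCND3 (0.441 to 0.788). With lists matched, CCND2 was within counting error of the genome, and CCND1 and CCND3 were below it.

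**Figure D4:**
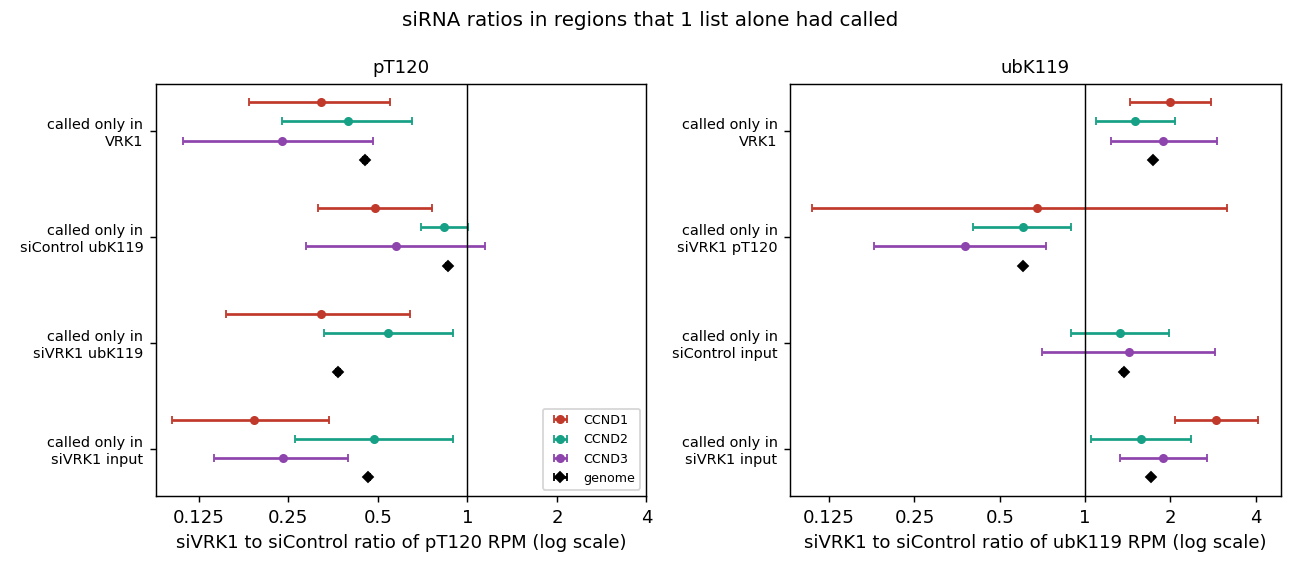
Ratio of siVRK1 to siControl RPM on a log scale for pT120 (left) and ubK119 (right), in regions that a single list had called, with exact 95% counting intervals; kinds with fewer than 2 regions at a locus are not drawn. CCND1, CCND2 and CCND3 are coloured circles and the genome is the black diamond, and in regions called only in siControl ubK119 the pT120 ratio of CCND2 (0.835) lies at the genome's (0.858).

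Single regions without a pT120 peak and with at least 10 pT120 reads in the pair were counted by direction. This left out 1 siControl and 2 siVRK1 peak regions at CCND1, 3 and 15 at CCND2, and 3 and 7 at CCND3. At CCND1, 6 of 8 such regions were lower by 1.5-fold or more in the siVRK1 library and 0 higher, at CCND2 15 of 32 lower and 6 higher, and at CCND3 5 of 6 lower and 0 higher. Over the genome 57.6% were lower and 11.4% higher. The intervals of the lower shares, 75% at CCND1 (34.9 to 96.8), 46.9% at CCND2 (29.1 to 65.3) and 83.3% at CCND3 (35.9 to 99.6), all include the genome's share, so these counts place no gene apart from the genome.

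Extreme pT120 ratios were taken among regions with at least 20 pT120 reads in the pair. The lowest at CCND2, 0.0547 (0.00622 to 0.224), was that of the siControl pT120 peak at chr12:4533037-4533406, 150 kb downstream. It held 21 siControl reads and 2 siVRK1 reads, beside 6 and 9 input reads. The highest, 3.64 (1.07 to 19.2), was that of the siVRK1 pT120 peak at chr12:4292462-4292799, 90.1 kb upstream, with 3 and 19 reads. Each was a peak of the library in which it was high, so these extremes follow the calling and are given as description. At CCND3 the region at chr6:42178658-42179037, a siVRK1 pT120 peak with 5 and 19 reads (2.18, 0.788 to 7.48), was alone in having at least 20 pT120 reads in the pair.

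Beside the inputs, pT120 in control cells was near the input level. Outside pT120 and input peaks, siControl pT120 was 1.37 times its input at CCND1 (1.05 to 1.802), 1.27 at CCND2 (1.08 to 1.49) and 1.16 at CCND3 (0.777 to 1.73), with 1.12 over the genome. Under siVRK1 it was 0.351 (0.267 to 0.458), 0.716 (0.624 to 0.821) and 0.475 (0.308 to 0.720), with 0.575 over the genome. These sums left out siVRK1 pT120 peaks, which 36.1% of all regions had. The change of pT120 over input between siRNAs was 0.256 (0.177 to 0.371) at CCND1, 0.566 (0.459 to 0.696) at CCND2, 0.409 (0.235 to 0.712) at CCND3 and 0.513 over the genome. Against the input of the other siRNA, siControl pT120 was 0.894 at CCND1 and 0.996 at CCND2, so its excess over input was again present with 1 input alone.

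The inputs themselves differed at CCND1 and CCND2, and at CCND3 where input peaks were included. The siVRK1 input called 12 regions at CCND1 and the siControl input 0, where 17.8% and 14.6% of all regions were called; at CCND2 they called 8 and 10, and at CCND3 10 and 4. At 0.446 RPM for both, the siVRK1 input kept 6, 2 and 7 peaks at CCND1, CCND2 and CCND3 and the siControl input 0, 10 and 4, with 12641 and 17980 over the genome. By peaks of equal height the siVRK1 input had fewer at CCND2, as over the genome, and more at CCND1 and CCND3. That height is the minimum of the siControl input list, so all its peaks passed by construction. Over all regions, input peaks included, the siVRK1 to siControl input ratio was 1.77 at CCND1 (1.48 to 2.12) and 1.18 at CCND2 (1.055 to 1.33). It was 1.31 at CCND3 (1.08 to 1.58) and 1.06 over the genome. In regions without an input peak, the input ratio of siVRK1 to siControl was 1.49 at CCND1 (1.18 to 1.88), 1.29 at CCND2 (1.13 to 1.48), 0.991 at CCND3 (0.747 to 1.32) and 1.06 over the genome. By region, 5 of 16 at CCND1, 14 of 43 at CCND2 and 3 of 10 at CCND3 were higher by 1.5-fold or more, against 29.3% over the genome, and 1, 4 and 1 were lower, against 18%. In these regions without input peaks, input RPM at CCND1 and CCND2 was higher in the siVRK1 library while pT120 RPM was lower there. In regions without a ubK119 peak, the ubK119 ratio relative to the inputs was 1.17 at CCND1, 1.16 at CCND2 and 0.957 at CCND3. The part of the input in the ubK119 ratios was not tested.

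Ubiquitylated H2A was called most often at CCND2. In control cells 54 of 107 CCND2 regions had a ubK119 peak (50.5%, exact interval 40.6 to 60.3), against 14 of 46 at CCND1 (30.4%), 4 of 36 at CCND3 (11.1%) and 23.9% of all regions. The CCND2 window held 101.6 such peaks per Mb, 10.4 times the genome and 9.60 times chromosome 12. At CCND1 the density was 2.80 times the genome and at CCND3 0.670 times. These peaks were low: heights at CCND2 were 15 to 23 extended reads with a median of 16, where the list's minimum was 15.

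Along CCND2, 38 of the 54 lay upstream, 5 in the gene body and 11 downstream. The nearest were 6.36 kb upstream and 2.87 kb downstream of the start. At CCND1, 13 of the 14 lay more than 80 kb downstream and 1 lay 30.7 kb upstream, so neither the gene nor the 80 kb after its start had one. At CCND3, 3 of the 4 were 59.2 kb or more upstream of the start.

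Under siVRK1 the ubK119 list was shorter at CCND2. It held 16 regions at CCND2 (15.0%), 10 at CCND1 (21.7%) and 1 at CCND3 (2.78%), where 11.3% of all regions had a siVRK1 ubK119 peak. Of the 16 at CCND2, 12 lay upstream, 3 in the gene body and 1 downstream, 34.6 kb from the start. All 10 at CCND1 lay 168 to 249 kb downstream. Density was 6.48 times the genome at CCND2, 4.197 at CCND1 and 0.351 at CCND3.

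The number of ubK119 peaks could not be compared between siRNAs as called. A siControl peak needed a height of 0.371 RPM and a siVRK1 peak 0.6005 RPM. At 0.6005 RPM for both, siControl kept 0, 0 and 0 peaks at CCND1, CCND2 and CCND3, and siVRK1 10, 16 and 1, with 1527 and 13818 over the genome. That height is the minimum of the siVRK1 list, so all its peaks passed by construction. The genome, with 28955 siControl and 13818 siVRK1 peaks as called, turned in the same way as CCND2, with 54 and 16. These counts therefore do not place either siRNA above the other at CCND2. Summed over all CCND2 regions, the siVRK1 to siControl ratio of ubK119 was 1.02 (0.943 to 1.10).

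At CCND2, 2 regions were in both ubK119 lists. The share of all regions in both lists was not computed, and 89.4% of all regions were called in 1 list only. The count is therefore given as description. At chr12:4230696-4231155, 152 kb upstream, siControl had 28 and siVRK1 35 ubK119 reads (1.69, 0.997 to 2.88), beside 7 and 16 input reads. The other lay at 4333581 to 4334007, 48.9 kb upstream. CCND1 and CCND3 had none in both lists.

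In regions without a ubK119 peak, the mark's siVRK1 to siControl ratio was highest at CCND1. CCND1 had 134 siControl and 221 siVRK1 reads (3.31 and 7.37 RPM) over 22 regions, a ratio of 2.23 (1.79 to 2.78). CCND2 had 283 and 245 reads (6.998 and 8.17 RPM) over 39 regions, a ratio of 1.17 (0.980 to 1.39). CCND3 had 179 and 178 reads (4.43 and 5.94 RPM) over 31 regions, a ratio of 1.34 (1.08 to 1.66). The genome gave 1.17, the same value as CCND2, and CCND1 lay above both. Over all regions, peaks included, the ratio was 1.71 at CCND1 (1.496 to 1.95), 1.02 at CCND2 (0.943 to 1.10), 1.21 at CCND3 (1.003 to 1.46) and 1.13 over the genome.

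The CCND1 ratio was 1.91 times that of CCND2 (1.45 to 2.51) and 1.66 times that of CCND3 (1.23 to 2.24). Beside it stood the input ratio of 1.49 at CCND1. Over input the change of ubK119 was 1.34 at CCND1 (0.853 to 2.10), 0.733 at CCND2 (0.510 to 1.06), 0.925 at CCND3 (0.605 to 1.41) and 0.929 over the genome, and the intervals of all 3 genes include 1. With genome regions of the same lists, ubK119 was 1.33 times the genome's ratio at CCND1 (1.08 to 1.65), 0.897 at CCND2 (0.755 to 1.07) and 0.9501 at CCND3 (0.772 to 1.17).

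Single regions without a ubK119 peak and with at least 10 ubK119 reads in the pair were counted by direction. At CCND1, 14 of 18 were higher by 1.5-fold or more and 0 lower, at CCND2 9 of 27 higher and 3 lower, and at CCND3 11 of 21 higher and 1 lower. Over the genome 44.6% were higher and 19.7% lower. At CCND1 this left out 14 regions with a siControl peak and 10 with a siVRK1 peak, and siControl peaks needed less RPM. The count of 0 lower thus holds for uncalled regions only. The CCND1 share of 77.8% (52.4 to 93.6) lay above the genome's share, and those of CCND2 (16.5 to 54.0) and CCND3 (29.8 to 74.3) include it.

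Extreme ubK119 ratios were taken among regions with at least 20 ubK119 reads in the pair. The largest at CCND1, 12.8 (3.09 to 113.5), was at chr11:69640302-69640519, 184 kb downstream, with 2 and 19 reads. That region was a siVRK1 input peak, with 6 and 15 input reads, and its pT120 reads were 8 and 0. At chr11:69697162-69697523, 241 kb downstream and outside input peaks, ubK119 reads were 11 and 28 (3.43, 1.66 to 7.64) and pT120 reads 6 and 1. That region was called as a siVRK1 ubK119 peak, so its high siVRK1 ubK119 reads follow the calling. At CCND2 the extremes were 5.85 (2.35 to 17.4) at chr12:4233096-4233296, with 6 and 26 reads, and 0.0675 (0.00163 to 0.422) at chr12:4169500-4169727, with 20 and 1. The first was a siVRK1 ubK119 peak and the second a siControl one.

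The level of ubK119 over input in control cells was highest at CCND2. Outside ubK119 and input peaks, siControl ubK119 was 1.56 times its input at CCND2 (1.18 to 2.07), 1.02 at CCND1 (0.713 to 1.48) and 0.965 at CCND3 (0.706 to 1.32), with 1.02 over the genome. The CCND2 value was 1.62 times that of CCND3 (1.08 to 2.43) and 1.53 times the genome's (1.17 to 2.01). CCND1 stood at 0.656 times CCND2, with an interval of 0.422 to 1.02. Against the siVRK1 input, CCND2 was 1.13 (0.895 to 1.43). Under siVRK1 the mark was 1.14 times its input at CCND2 (0.890 to 1.47), 1.37 at CCND1 (1.02 to 1.85) and 0.892 at CCND3 (0.654 to 1.22), with 0.946 over the genome.

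**Figure D5:**
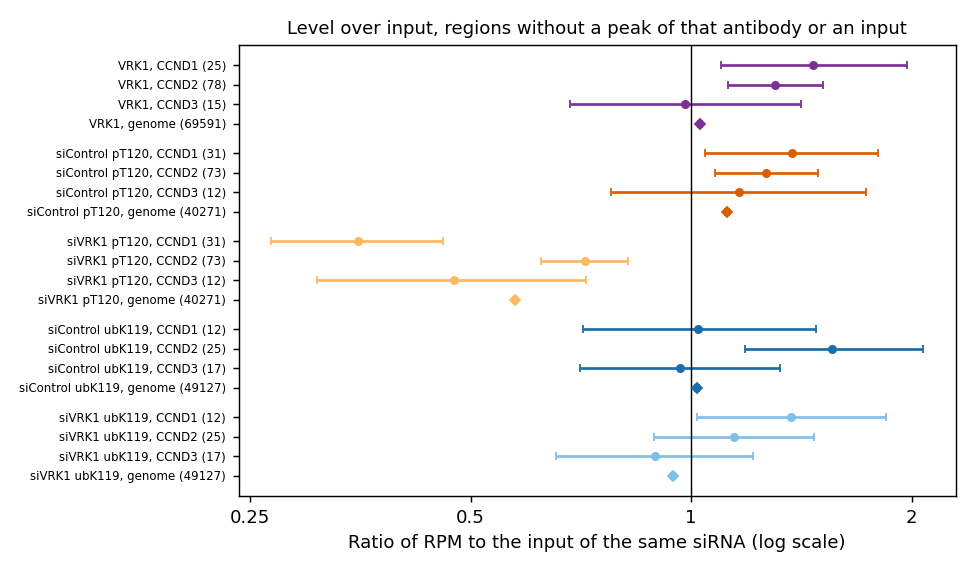
Ratio of summed RPM to the input of the same siRNA, on a log scale, for each antibody library at each locus and over the genome, in regions without a peak of that antibody or of an input. Points carry exact 95% counting intervals and the number of regions, and siControl ubK119 at CCND2 (1.56) stands above the genome's value (1.02). Outside its own peaks, siVRK1 pT120 lies below 1 at all 3 loci and over the genome (0.575).

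In the CCND2 gene body, 1 region had the most RPM summed over the antibody libraries (3.28). At chr12:4390105-4390649, 7203 bp downstream of the start, the siVRK1 ubK119 library had 48 reads (1.601 RPM), the most of any library in any cyclin D region, and siControl ubK119 16 (0.396 RPM). The ubK119 ratio was 4.05 (2.26 to 7.64), in a region called for that library. The pT120 reads were 12 under siControl and 3 under siVRK1, a ratio of 0.144 (0.0260 to 0.532). Over input, siControl pT120 was 2.60 (0.903 to 8.44), an interval that includes 1. VRK1 had 20 reads, 2.80 times the siControl input (1.08 to 8.51), and the inputs had 6 (siControl) and 20 (siVRK1). The region was called in the siVRK1 ubK119 list alone, and the siVRK1 input was the higher input there, as the siVRK1 library was the higher for ubK119.

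At chr12:4397623-4397823, a VRK1 peak 14.7 kb into CCND2, the pT120 reads were likewise 12 and 3, with the same ratio, and ubK119 reads 9 and 17 (2.55, 1.07 to 6.49), beside 6 and 8 input reads. In regions called only in siControl ubK119 in the same gene body, the ubK119 intervals included 1 in the named cases. At chr12:4403850-4404108 the ubK119 reads were 17 and 14 (1.11, 0.507 to 2.40) and pT120 reads 5 and 1. At chr12:4413725-4413964 they were 15 and 16 (1.44, 0.666 to 3.13) and 2 and 6. The siVRK1 input peak at chr12:4394177-4394392 had 1 and 14 input reads, with 8 VRK1, 3 and 10 pT120 and 10 and 11 ubK119 reads.

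Outside the gene body and input peaks, the CCND2 regions with the most antibody RPM were ubK119 peaks upstream of the gene. At chr12:4311431-4312051, 70.9 kb upstream, ubK119 reads were 40 and 22 (0.742, 0.420 to 1.28), 3.80 times the siControl input (1.68 to 10.1) and 1.16 times the siVRK1 input (0.610 to 2.22). At chr12:4350511-4351048, 31.9 kb upstream, they were 32 and 26 (1.10, 0.628 to 1.90), 2.13 and 3.61 times the inputs. The first region had 7 siControl and 21 siVRK1 input reads. These 2 regions were called in siControl ubK119 alone, so their siControl ubK119 level over input follows the calling. The intervals of their siRNA ratios overlap, and a difference between these 2 regions was not tested.

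The region called in 3 antibody lists lay at chr12:4315429-4315872, 67.0 kb upstream of CCND2, with peaks of VRK1, siControl pT120, siVRK1 ubK119 and the siControl input. It held 20 VRK1, 13 and 7 pT120, 21 and 25 ubK119, and 13 and 16 input reads. Over input it was 1.29 for VRK1 (0.611 to 2.83), 1.30 for siControl pT120 (0.555 to 3.04) and 1.73 for siVRK1 ubK119 (0.890 to 3.47). Its pT120 ratio between siRNAs was 0.309 (0.104 to 0.834). Calls in several lists there thus went with a high input, and no antibody exceeded input beyond counting error.

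The CCND3 gene body held 6 regions, all called in an input and in no antibody list. In the siVRK1 input peaks at 84.2 and 31.7 kb from the start, input reads were 6 and 26, and 3 and 19, between siControl and siVRK1. The pT120 reads of the second, at chr6:41984659-41984960, were 12 and 5 (0.239, 0.0660 to 0.730), with 12 VRK1 reads and 6 and 4 ubK119 reads. Over the remaining 5, pT120 reads ran from 1 to 8 under siControl and from 2 to 5 under siVRK1. Upstream of CCND3, the VRK1 peak at chr6:42134646-42134924 had 18 VRK1 reads against 10 in the siControl input (1.51, 0.661 to 3.66), and its pT120 reads were 4 and 0. The siControl ubK119 peak at chr6:42089744-42089999, 73.1 kb upstream, had 18 and 7 ubK119 reads (0.525, 0.185 to 1.32) beside 3 and 6 input reads.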

How the data were processed

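Fixed and sonicated HT1080 chromatin gave 7 libraries, which went through 20 PCR cycles and 36 sequencing cycles, per the labels' protocols. The tools CASAVA 1.8.2, Partek and Bowtie 0.12.8 and the build hg19 come from the submitters' processing notes. Each deposited list holds the peaks of 1 library. Per the file headers, it gives the peak height (a signal, the highest number of extended reads), the height in RPM, a Mann-Whitney p-value, the percent of overlap with the other lists' peaks, peak length, and the read count of each library in each region, not normalized. The p-value was not used. Not given in the sources used here were the caller's settings, the handling of duplicates, any use of an input in calling, and whether positions start at 0 or 1.

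Library totals were height divided by RPM. Overlapping peaks (at least 1 bp) were merged, and a region was counted from its longest deposited peak. Ratios are of RPM, with exact conditional binomial 95% intervals, and ratios between loci or of ratios have intervals on the log scale. Shares have exact Clopper-Pearson 95% intervals. Sums, and counts of regions past 1.5-fold, left out peaks of the antibody compared. Sums also left out regions with over 100 reads in an input, and sums over input left out input peaks too. The part of a library's peaks in its own level is thereby removed, not that of other lists. No p-value was computed. Overlap was checked against the deposited percent in 1212 pairs, with 0 disagreements. Ratios were tested on simulated data. Gene bodies came with the rule that chose the loci. Regions named were those within 5 kb of a start, in a gene body (at most 6), the 3 with the most antibody RPM outside input peaks, those in 3 antibody lists, and the lowest and highest ratio of each mark among regions with at least 20 reads. A planned list of other G1 to S genes is not analysed here, since no annotation of hg19 was used. The members, lists and rule were chosen with earlier results of these data known. Python 3.11.15, pandas 2.3.3, NumPy 2.4.6, SciPy 1.17.1 and Matplotlib 3.10.9 were used.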

Additional observations from a re-analysis of the deposited data

How the results depend on the processing

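Over 207 alternatives to 95 results, 156 stayed within the main 95% interval or, for counts, within 1.5-fold. A further 44 moved outside these limits, and 7 reversed, crossing 1 where the main interval excluded 1. Values among the 156 could cross 1 where the main interval included it. VRK1 over input at CCND3, for example, was 0.982 and became 1.28 (1.06 to 1.56) with all regions. For pT120, ratios at CCND1, CCND2 and CCND3 relative to the inputs were 0.187, 0.579 and 0.232, and relative to the genome 0.599, 1.195 and 0.571; weighted by list, 0.592, 0.996 and 0.589. With all regions, CCND2 gave 0.825 and CCND3 0.561 against 1.07 over the genome, which makes 0.357, 0.772 and 0.525 relative to it for the 3 genes (1.504, 0.899 and 1.07 for ubK119; chosen after seeing the data), and within 100 kb CCND1 gave 0.452. For ubK119, CCND1 gave 1.71 with all regions, 1.17 relative to the inputs and 1.77 without input peaks; CCND3 gave 0.957 relative to the inputs and 1.02 without input peaks. Weighted by list, ubK119 was 1.33, 0.897 and 0.9501.

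With the input of the other siRNA, VRK1 over input was 0.959 at CCND1 and 1.005 at CCND2, siControl pT120 0.894 and 0.996, siVRK1 pT120 0.539 and 0.911, and at CCND2 ubK119 was 1.13 (siControl) and 1.58 (siVRK1). Within 100 kb, over-input ratios were 0.894 (siControl pT120, CCND1), 0.462 and 0.969 (siVRK1 pT120, CCND1 and CCND3) and 0.555 (siVRK1 ubK119, CCND3). With all regions, siControl ubK119 over input was 1.497 at CCND1 and siVRK1 ubK119 1.67 at CCND2, by construction, since called peaks enter. The cause of the other shifts was not tested.

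Regions at CCND1, CCND2 and CCND3 numbered 13, 27 and 2 at heights of at least 18 reads, 11, 57 and 16 within 100 kb, and 22 at CCND3 without input peaks. Within 10 kb of the start, CCND1 had 2 and CCND2 5, and within 2 kb CCND2 had 0. Among regions with at least 20 reads and no peak of the mark, 0% at CCND2 had pT120 lower past 1.5-fold. Likewise, 0% at CCND3 had ubK119 higher. Of 59 alternatives for named regions, 58 stayed; from its shortest peak the CCND2 region at 4315429 had a ubK119 ratio of 3.15. No paired analysis was possible because each condition had 1 library and the labels number no replicates. Depth limits single regions: 3 reads are 0.0742 to 0.145 RPM.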
